A study of Homo sapiens with 6 samples.

Results

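Genes of the extracellular matrix and of its proteolysis were examined in human embryonic kidney HEK293T cells: the numbered collagen chains, the laminin chains, the matrix metalloproteinases (MMPs), their tissue inhibitors (TIMPs), tenascin-C (TNC) and fibronectin (FN1). Members were all protein-coding genes whose GENCODE release 29 symbol has one of these names, 84 of the 58721 genes in the count table. They comprised 44 collagen, 12 laminin, 22 MMP and 4 TIMP genes, TNC and FN1. The study compared 3 libraries of HEK293T cells in which both FTO and ALKBH5 had been knocked out by CRISPR/Cas9 with 3 libraries of wild type HEK293T cells. The proteins of both genes remove the N6-methyl mark from adenosines in RNA. The libraries were made from rRNA-depleted RNA of cleared Triton lysates with cycloheximide, without selection for poly(A), and are called independent biological replicates. How many knockout clones were used is not given in the sources used here. In the table, the wild type columns are named HEK293G6, and whether those cells were the parents of the knockout is not given either, so a difference between lines and an effect of the knockout cannot be told apart.

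Total gene counts lay between 5923328 and 6433469 in double knockout and between 5634648 and 7551825 in wild type. FTO had 53.6 to 61.0 CPM (read counts scaled to library size) in double knockout, against 96.5 to 112 CPM in wild type, and ALKBH5 had 186 to 187 CPM in double knockout, against 235 to 256 CPM in wild type. Both targeted transcripts were therefore lower but present in the double knockout libraries. Of 8 genes listed as typical of the HEK293 line, among them VIM, KRT8, KRT18, NEFM and PAX2, 8 passed the low-count filter and 8 rose. Of all 14180 genes past that filter, 28.6% were called higher at an adjusted p under 0.05. The list had a summed level of 1589 to 1600 CPM in double knockout and 1110 to 1183 CPM in wild type. Most of this was VIM, which averaged 1157 CPM in double knockout and 844 CPM in wild type. Macrophage markers (7 listed, none past the filter) summed to 1.39 to 2.08 CPM in double knockout and 1.22 to 1.45 CPM in wild type. Endothelial markers (6 listed, none past the filter, CLDN5 at 0 reads) summed to 0.999 to 3.04 CPM in double knockout and 1.27 to 1.77 CPM in wild type.

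Collagens are trimers wound from chains with a repeating glycine at every turn, and laminins are cross-shaped trimers of an alpha, a beta and a gamma chain. Type IV collagen and laminins build the basement membrane, the sheet under epithelia, whereas fibril-forming collagens, fibronectin and tenascin-C belong to the interstitial matrix. MMPs are zinc-dependent proteases that cleave these proteins, and TIMPs bind and block their active site. Kidney tubules and glomeruli rest on basement membranes whose type IV collagen chains differ between embryonic and mature tissue.

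The sequences below are RefSeq promoter windows (GRCh38.p14, 250 bases before to 50 after an annotated start), shown for genes that lie head to head or that the results below turn on. Windows were matched by symbol for 57 of the 84 members. In the first set, the capitals mark the bases that the window shares with that of the neighbouring chain gene on the opposite strand. COL4A2 and COL4A1 start 127 bases apart and share 226 of the 300 bases (chr13:110307034-110307333, plus strand). COL4A3 and COL4A4 start 419 bases apart and share 82 bases (chr2:227164374-227164673, plus strand). COL4A5 and COL4A6 start 380 bases apart and share 121 bases (chrX:108439588-108439887, plus strand).
COL4A2: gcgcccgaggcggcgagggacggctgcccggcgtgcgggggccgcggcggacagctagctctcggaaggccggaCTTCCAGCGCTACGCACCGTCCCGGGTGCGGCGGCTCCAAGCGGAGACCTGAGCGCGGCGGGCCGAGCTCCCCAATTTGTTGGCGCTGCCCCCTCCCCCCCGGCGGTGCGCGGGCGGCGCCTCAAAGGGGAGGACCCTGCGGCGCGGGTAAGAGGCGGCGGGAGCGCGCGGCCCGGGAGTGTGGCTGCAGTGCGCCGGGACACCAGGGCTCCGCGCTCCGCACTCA
COL4A3: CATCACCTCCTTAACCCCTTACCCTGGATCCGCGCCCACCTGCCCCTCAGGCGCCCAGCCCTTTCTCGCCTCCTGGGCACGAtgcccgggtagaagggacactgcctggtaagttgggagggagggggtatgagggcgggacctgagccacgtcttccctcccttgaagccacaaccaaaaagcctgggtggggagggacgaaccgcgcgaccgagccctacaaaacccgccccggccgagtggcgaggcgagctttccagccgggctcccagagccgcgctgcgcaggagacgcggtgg
COL4A5: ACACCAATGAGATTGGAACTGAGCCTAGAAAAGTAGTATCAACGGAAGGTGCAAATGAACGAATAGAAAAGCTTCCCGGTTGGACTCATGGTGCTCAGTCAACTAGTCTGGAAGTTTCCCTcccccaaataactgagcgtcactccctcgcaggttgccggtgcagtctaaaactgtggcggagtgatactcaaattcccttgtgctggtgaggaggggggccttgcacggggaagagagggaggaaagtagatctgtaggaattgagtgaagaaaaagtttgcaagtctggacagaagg

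In the second set, the capitals mark TGANTCA, where N is any base, searched on both strands. This pattern includes the letters known as a binding site of AP-1 (JUN and FOS proteins), but is looser, since it allows every middle base. It occurs in 2707 of 35116 RefSeq windows (7.71%) and in 6 of the 71 windows of members (8.45%), 1 window each of COL10A1, LAMA3, LAMB3, MMP7, MMP10 and MMP20. The windows shown are those of members described below, at chr11:102780579-102780878 (minus strand), chr18:23872770-23873069 (plus strand, an internal start of LAMA3) and chr1:209651325-209651624 (minus strand, 1 of 3 windows of LAMB3). The motif begins 67 bases before the start in MMP10 (TGAATCA), 67 before it in LAMB3 (TGACTCA), and 125 and 69 before it in LAMA3 (TGACTCA and TGAGTCA). A match describes letters in the window and is not evidence of binding.
MMP10: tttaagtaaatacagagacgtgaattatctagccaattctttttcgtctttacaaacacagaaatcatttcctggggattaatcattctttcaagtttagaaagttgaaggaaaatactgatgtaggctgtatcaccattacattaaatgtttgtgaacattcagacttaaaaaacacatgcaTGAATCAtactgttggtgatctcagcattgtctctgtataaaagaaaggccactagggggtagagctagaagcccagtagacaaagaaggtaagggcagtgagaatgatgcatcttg
LAMA3: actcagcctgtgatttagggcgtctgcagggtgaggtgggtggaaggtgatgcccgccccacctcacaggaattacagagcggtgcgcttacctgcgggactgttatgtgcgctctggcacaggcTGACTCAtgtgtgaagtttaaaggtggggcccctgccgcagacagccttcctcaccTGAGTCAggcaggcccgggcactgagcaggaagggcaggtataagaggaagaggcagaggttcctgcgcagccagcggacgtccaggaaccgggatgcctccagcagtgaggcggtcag
LAMB3: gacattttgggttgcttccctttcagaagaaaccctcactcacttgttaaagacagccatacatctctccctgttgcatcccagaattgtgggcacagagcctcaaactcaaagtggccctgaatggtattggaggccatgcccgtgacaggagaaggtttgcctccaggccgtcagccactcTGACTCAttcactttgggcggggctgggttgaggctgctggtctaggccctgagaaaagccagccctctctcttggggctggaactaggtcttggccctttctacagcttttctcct

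Of the 84 members, 49 passed the low-count filter (edgeR filterByExpr). Among these, 26 were higher and 13 lower in double knockout at an adjusted p under 0.05, and 10 did not pass, whereas 57.1% of all 14180 tested genes were called, 28.6% higher and 28.5% lower. At least 2-fold differences were called higher in 11 members and lower in 2, against 4.63% and 1.37% of tested genes. The median log2 fold change of the tested members was 0.25, and that of all tested genes was 0.01. The libraries of the groups did not overlap in 26 members that were higher and 13 that were lower in double knockout, against 30.3% of tested genes in each direction. By family, MMPs and TIMPs were called in 1 direction only, higher, while collagens were divided. Scaling to the spike-in RNAs (GFP and FLuc) in place of TMM shifted the median log2 fold change of all tested genes by -0.11. It rested on 285 to 384 GFP and 31 to 64 FLuc reads per library, so its factors carry counting error. The Rluc spike-in, with 271 to 378 reads, was not used. With spike-in scaling, 2133 genes were called higher and 4236 lower, and 19 members higher and 13 lower. Of the 39 called members, 9 lay among neighbours (tested genes within 5 Mb, excluding members) whose median log2 fold change was beyond 0.2 in either direction, and these medians are given beside the genes. The part of their regions in the members' differences was not tested. In bulk RNA, fewer cells making a transcript and less transcript per cell cannot be told apart.

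**Figure D1:**
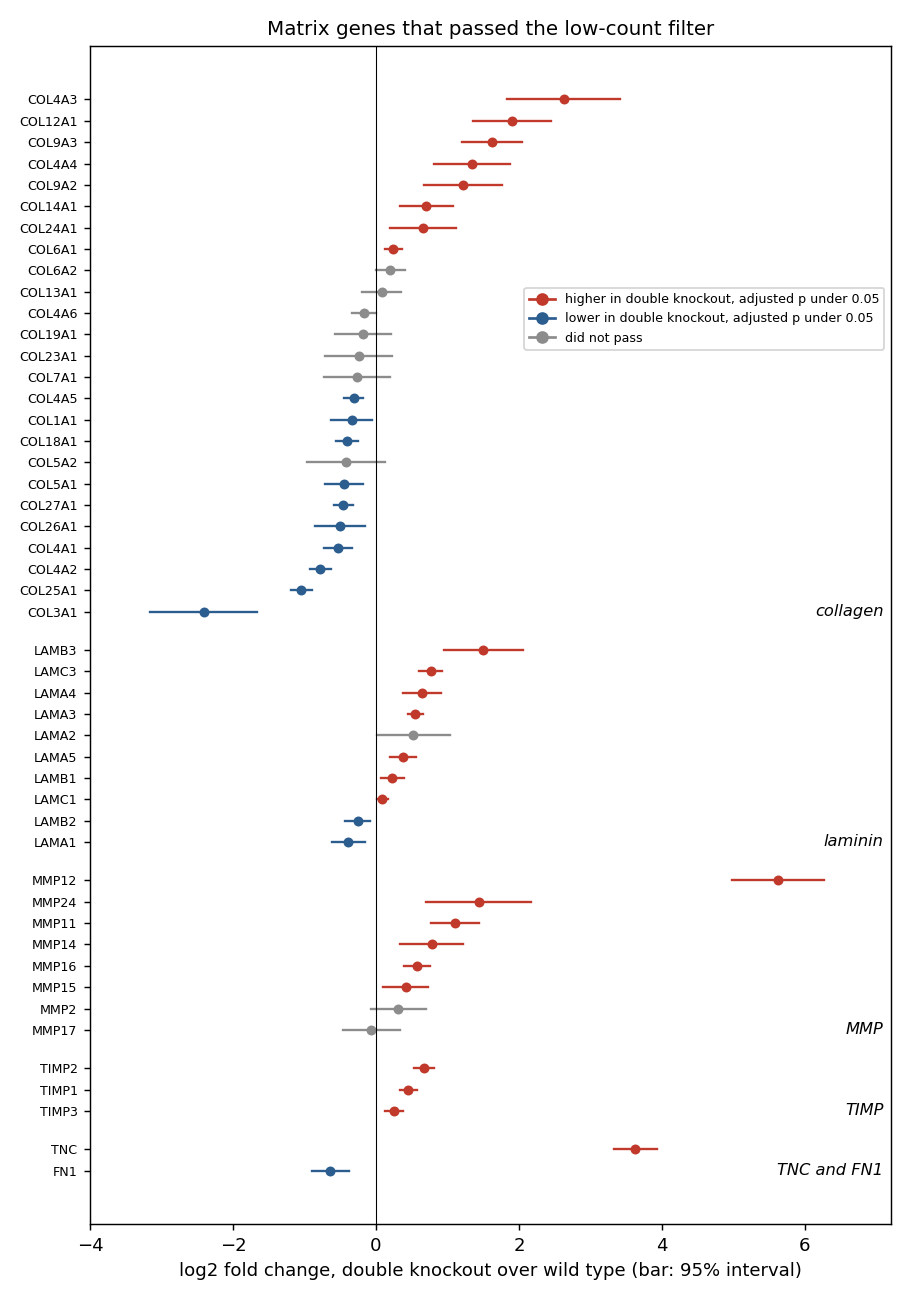
Log2 fold change (double knockout over wild type, x axis) of members that passed the low-count filter and are described in the text, by family, with 95% intervals as bars and colour for the call at adjusted p under 0.05. MMP12 lies at 5.63, TNC at 3.63 and COL3A1 at -2.41, and most other points lie between -1 and 2.

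MMPs that degrade matrix were higher in double knockout where they changed. Of 22 MMP genes, 8 passed the filter, 6 of these rose, 0 fell and 2 did not pass, against 28.6% of all tested genes called higher and 28.5% lower. MMPs summed to 87.9, 88.0 and 105 CPM in the double knockout libraries, against 49.4, 54.4 and 54.5 CPM in the wild type libraries. MMP12 (ENSG00000262406.2, chromosome 11, 102862736 to 102875034, hg38), a secreted elastase known from macrophages, had 13.3, 12.5 and 13.9 CPM in the double knockout libraries, against 0.275, 0.272 and 0.182 CPM in the wild type libraries. These values stand on 80, 81 and 87 reads in the double knockout libraries, against 2, 2 and 1 in the wild type libraries. The groups were separated by more than an order of magnitude (log2 fold change 5.63, SE 0.33, adjusted p = 2.36e-52). Per length of annotated exons MMP12 had 7.06 RPKM in double knockout and 0.13 RPKM in wild type, where RPKM is CPM per kilobase of exon. In double knockout it was the most abundant tested MMP per length. The 7 macrophage markers had at most 5 reads in any library, the highest being CD14 with 0, 2 and 3 reads in the double knockout libraries, against 2, 5 and 2 in the wild type libraries. ITGAM had 3, 4 and 4 reads in the double knockout libraries, against 4, 1 and 2 in the wild type libraries.

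MMP12 lies in a cluster of 9 MMP genes on chromosome 11 (102520508 to 102955734). Beside MMP12, these are MMP7, MMP20, MMP27, MMP8, MMP10, MMP1, MMP3 and MMP13, which encode collagenases, stromelysins, matrilysin, enamelysin and a less studied member. The other 8 genes did not pass the filter, and together had 16, 11 and 25 reads in the double knockout libraries, against 2, 3 and 0 reads in the wild type libraries. Pooled over libraries and scaled for depth this is a ratio of 11.2 (95% counting interval 4.49 to 35.8, counting error only). MMP10, stromelysin-2, contributed 10, 7 and 14 reads in the double knockout libraries, against 1, 1 and 0 in the wild type libraries, a pooled ratio of 16.6 (interval 4.23 to 143). MMP13, collagenase-3, had 2, 2 and 6 reads in the double knockout libraries, against 0, 0 and 0 in the wild type libraries, and the 95% counting interval of its pooled ratio begins at 2.41. When the filter was dropped, MMP10 and MMP13 were called (adjusted p = 2.75e-06 and 0.00676), the only called genes among the 35 members that did not pass it. In that fit, 3889 of all 29387 genes were called higher and 3996 lower. The called share among all genes that did not pass the filter was not computed, so these calls cannot be called a trait of the members. MMP3, stromelysin-1, had 1, 2 and 2 reads in the double knockout libraries, against 0, 0 and 0 in the wild type libraries (adjusted p = 0.0921 without the filter). Without MMP12 and MMP10, the other 7 cluster genes had 21 reads in double knockout and 3 in wild type, a ratio of 7.51 (interval 2.24 to 39.3). MMP13 supplied 10 of these 21 reads. In all, 8 of the 9 cluster genes had reads in double knockout and 3 of 9 in wild type, MMP8 being at 0 in both. MMP7 and MMP27 had 1 double knockout read each and MMP1 had 2, while MMP20 had 2 reads in double knockout and 3 in wild type. MMP1 and MMP3 share 150 and 32 exon bases with WTAPP1 on the opposite strand, which had 163 reads over the libraries. The tested genes around MMP12, within 5 Mb on either side and excluding members, had a median log2 fold change of -0.09 over 18 genes.

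**Figure D2:**
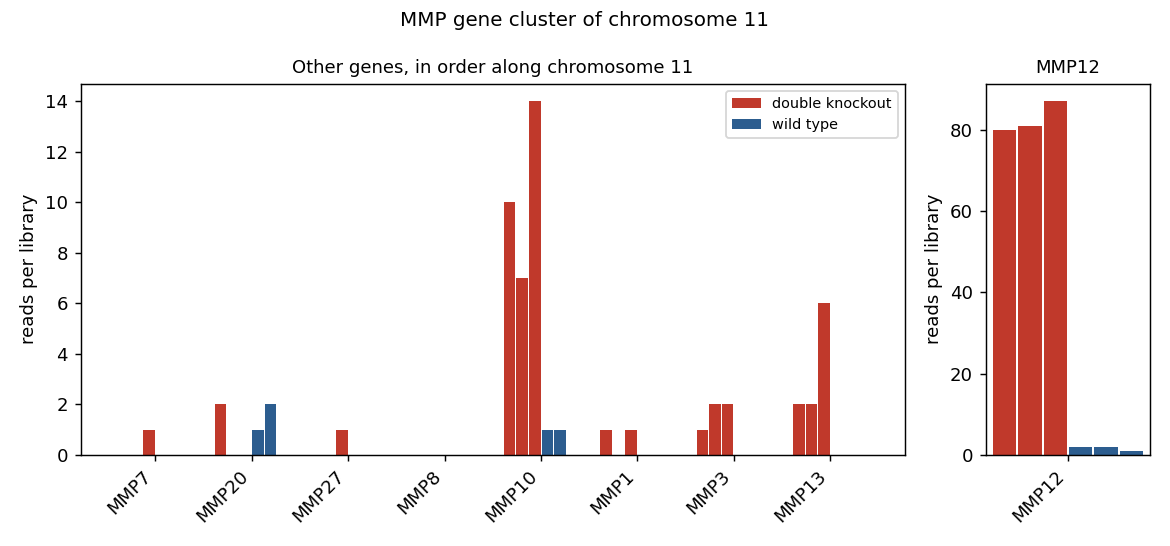
Reads per library (y axis, linear from 0) for the MMP genes of the chromosome 11 cluster, other genes on the left in chromosomal order and MMP12 on the right on its own scale, with 3 double knockout bars before 3 wild type bars for each gene. MMP12 had 80 to 87 reads in double knockout libraries and 1 or 2 in wild type, and MMP10 had 7 to 14 in double knockout and 0 or 1 in wild type.

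Among the other secreted MMPs, MMP11 (stromelysin-3, an MMP activated inside the cell by furin) had 9.49, 12 and 11.8 CPM in the double knockout libraries, against 4.67, 4.34 and 6.9 CPM in the wild type libraries. Its groups did not overlap (log2 fold change 1.11, SE 0.17, adjusted p = 2.60e-09). MMP2, gelatinase A, had 8.16, 4.46 and 7.52 CPM in double knockout and 4.81, 5.84 and 5.45 CPM in wild type, with overlapping groups and no call (95% interval -0.08 to 0.70, adjusted p = 0.168). Without double knockout replicate 2, the lowest of its group, MMP2 was called at a log2 fold change of 0.54 (adjusted p = 0.0216), and without double knockout replicate 1, the highest, it was 0.15 (adjusted p = 0.612). MMP9, gelatinase B, had 3 reads, all in double knockout replicate 2.

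Membrane-anchored MMPs, which act at the cell surface, were 6 of the 22, and of the 5 past the filter 4 rose. MMP16 (MT3-MMP) had 30.0, 30.6 and 36.6 CPM in the double knockout libraries, against 22.4, 21.3 and 21.8 CPM in the wild type libraries (log2 fold change 0.57, SE 0.09, adjusted p = 8.70e-09). MMP15 (MT2-MMP) had 9.66, 10.5 and 11 CPM in the double knockout libraries, against 6.6, 8.83 and 7.99 CPM in the wild type libraries (log2 fold change 0.42, SE 0.16, adjusted p = 0.019). The groups of both genes did not overlap, but the call of MMP15 was lost without double knockout replicate 3 (0.37, adjusted p = 0.0722) and without wild type replicate 1 (0.29, adjusted p = 0.169), as it was with DESeq2 (0.114) and spike-in scaling (0.171). MMP14 (MT1-MMP), which activates the MMP2 proenzyme together with TIMP2, had 4.66, 6.16 and 7.04 CPM in the double knockout libraries, against 3.16, 3.39 and 3.99 CPM in the wild type libraries (log2 fold change 0.78, SE 0.23, adjusted p = 0.00157). MMP24 (MT5-MMP), described in brain, had 3.0, 2.62 and 2.56 CPM in the double knockout libraries, against 1.24, 0.95 and 0.726 CPM in the wild type libraries (log2 fold change 1.44, SE 0.37, adjusted p = 3.71e-04). All 3 double knockout libraries were above all 3 wild type libraries in each of these genes. MMP17, a lipid-anchored MMP, had 5.83, 4.46 and 6.72 CPM in double knockout and 4.81, 6.65 and 6.35 CPM in wild type (95% interval -0.46 to 0.33, adjusted p = 0.808). MMP24 shares 799 exon bases with MMP24OS on the opposite strand, which did not pass (log2 fold change 0.29, adjusted p = 0.158). MMP11 shares 218 with CHCHD10, which fell by 0.40, and MMP16 shares 118 with AC090578.1, which rose by 0.83, so part of the reads of each pair could belong to either gene if counting ignored strand.

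The TIMP genes that passed the filter were higher in double knockout. Of 4 TIMP genes, 3 passed the filter and 3 rose, against 28.6% of all tested genes called higher. TIMP4 had 0 reads in all 6 libraries, which allows up to 0.407 to 0.545 CPM in a library (3 reads). TIMP1, a soluble inhibitor of many MMPs, had 82.8, 78.3 and 77.3 CPM in the double knockout libraries, against 53.6, 62.9 and 57.9 CPM in the wild type libraries (log2 fold change 0.45, SE 0.06, adjusted p = 2.13e-12). TIMP2 had 60.6, 55.3 and 66.6 CPM in the double knockout libraries, against 38.5, 36 and 40.3 CPM in the wild type libraries (log2 fold change 0.67, SE 0.07, adjusted p = 1.02e-18). TIMP3, which binds to the matrix and also inhibits ADAM proteases, had 63.3, 63.1 and 67.4 CPM in the double knockout libraries, against 52.9, 53.6 and 56.5 CPM in the wild type libraries (log2 fold change 0.25, SE 0.06, adjusted p = 2.34e-04). The groups did not overlap in any of these genes, and fold changes were modest beside those of MMP12 and MMP24. Per length, TIMP1 was the most abundant of the 49 members, with 51.6 RPKM in double knockout and 37.7 RPKM in wild type. TIMP sums were 207, 197 and 211 CPM in the double knockout libraries, against 145, 152 and 155 CPM in the wild type libraries, a ratio of means of 1.36, and the same ratio for MMP sums was 1.78. With spike-in scaling the call of TIMP3 was lost (0.14, adjusted p = 0.267).

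**Figure D3:**
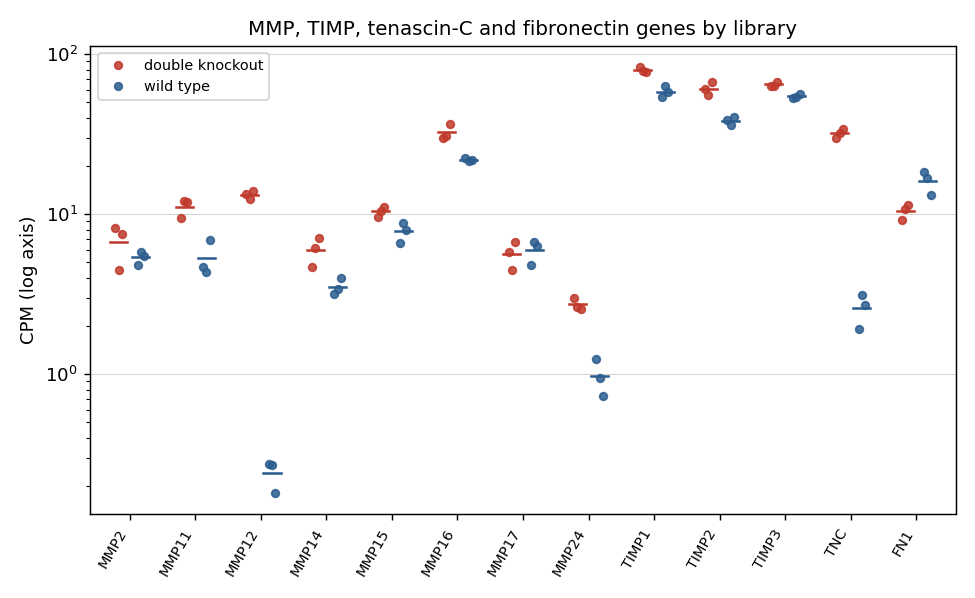
CPM per library (log axis) for the tested MMP and TIMP genes, TNC and FN1, double knockout left of wild type, with a short line at each mean. TNC sits at 29.8 to 34.2 CPM in double knockout and at 1.92 to 3.12 CPM in wild type, and the groups overlap in MMP2 and MMP17.

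The matrix glycoproteins TNC and FN1 moved in opposite directions. TNC (ENSG00000041982.15, chromosome 9, 115019578 to 115118257), a large hexameric protein that loosens cell adhesion and is scarce in most adult tissues, had 29.8, 32.2 and 34.2 CPM in the double knockout libraries, against 1.92, 3.12 and 2.72 CPM in the wild type libraries. Every double knockout library was at least 9-fold above every wild type library (log2 fold change 3.63, SE 0.15, adjusted p = 1.05e-84). Genes within 5 Mb of its start had a median log2 fold change of 0.26 over 34 genes, and TNC less that median was 3.37. TNC shares 129 exon bases with DEC1 on the opposite strand, which had 40 reads over the libraries. FN1, fibronectin, which tenascin-C antagonises in adhesion, had 9.16, 10.8 and 11.4 CPM in the double knockout libraries, against 18.3, 16.7 and 13.3 CPM in the wild type libraries. Its groups did not overlap, and the fall was 0.64 on the log2 scale (SE 0.13, adjusted p = 6.40e-06). Per length, TNC had 3.33 RPKM in double knockout and 0.269 RPKM in wild type, and FN1 had 0.602 RPKM in double knockout and 0.929 RPKM in wild type.

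Collagen genes were divided, and their sum was lower in the double knockout libraries, with 429, 431 and 470 CPM, against 529, 516 and 532 CPM in the wild type libraries. Of 44 collagen genes, 25 passed the filter, 8 rose, 10 fell and 7 did not pass (median log2 fold change -0.24), against 28.6% of all tested genes called higher and 28.5% lower. Fibril-associated collagens rose in 4 of 5 tested genes with 0 falling, fibril-forming collagens fell in 4 of 6 with 1 rising, and type IV chains did both. The classes were assigned with the results in view, and the counts are a description.

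Type IV collagen chains, the scaffold of basement membranes, are encoded by 3 head-to-head gene pairs. Both genes of the first pair fell, both of the second rose, and 1 gene of the third fell. The COL4A1 and COL4A2 chains form the trimer found in nearly all basement membranes. COL4A1 had 18.3, 20.2 and 22.2 CPM in the double knockout libraries, against 28.5, 28.2 and 31.8 CPM in the wild type libraries (log2 fold change -0.53, SE 0.10, adjusted p = 2.77e-07). COL4A2 had 34.5, 32 and 35.2 CPM in the double knockout libraries, against 55.4, 60.8 and 58.1 CPM in the wild type libraries (log2 fold change -0.78, SE 0.07, adjusted p = 1.37e-22). Both fell, and their sum was 54.1 ± 2.88 CPM in double knockout and 87.6 ± 3.26 CPM in wild type (SD, 3 libraries each). Genes within 5 Mb had a median log2 fold change of -0.00 over 27 genes.

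The COL4A3 and COL4A4 chains join COL4A5 in the trimer of the mature glomerular basement membrane, and their genes rose. COL4A3 had 3.5, 3.85 and 3.04 CPM in the double knockout libraries, against 0.412, 0.815 and 0.363 CPM in the wild type libraries, from 11 wild type reads in all (log2 fold change 2.62, SE 0.40, adjusted p = 1.04e-09). COL4A4 had 4.66, 4.93 and 5.6 CPM in the double knockout libraries, against 2.61, 1.63 and 1.63 CPM in the wild type libraries (log2 fold change 1.34, SE 0.27, adjusted p = 3.63e-06). The groups did not overlap in either gene, and the pair summed to 8.52 ± 0.323 CPM in double knockout and 2.49 ± 0.515 CPM in wild type. COL4A3 shares 120 exon bases with AC097662.1 on the opposite strand, which did not pass (adjusted p = 0.722). Even so, COL4A3 remained the scarcest type IV chain per length in double knockout, with 0.379 RPKM in double knockout and 0.0581 RPKM in wild type.

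The third pair, COL4A5 and COL4A6, whose chains form a trimer of tubular and other basement membranes, gave a lower call in 1 of its genes. COL4A5 had 52.5, 45.7 and 50.4 CPM in the double knockout libraries, against 67.5, 56.8 and 59.7 CPM in the wild type libraries (log2 fold change -0.31, SE 0.07, adjusted p = 1.18e-05). COL4A6 had 30.8, 26.6 and 33.8 CPM in double knockout and 37.1, 31.8 and 33.2 CPM in wild type, with overlapping groups (95% interval -0.34 to 0.00, adjusted p = 0.0833). COL4A6 was called without double knockout replicate 3 (-0.25, adjusted p = 0.0218) and without wild type replicate 2 (-0.23, adjusted p = 0.0345), whereas it was -0.08 without double knockout replicate 2 (adjusted p = 0.502) and -0.10 without wild type replicate 1 (adjusted p = 0.395). COL4A5 was the most abundant type IV chain per length in both groups, with 4.17 RPKM in double knockout and 5.17 RPKM in wild type.

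Of the 11 fibril-forming collagen genes, 6 passed the filter. COL1A2, the partner of COL1A1 in type I collagen, had 0 reads in all 6 libraries, and COL2A1 had 8 reads in each group. COL3A1, the chain of type III collagen of distensible tissues, had 0.999, 0.923 and 0.16 CPM in the double knockout libraries, against 3.3, 3.94 and 4.18 CPM in the wild type libraries (13 and 76 reads in all, log2 fold change -2.41, SE 0.38, adjusted p = 2.07e-09). COL1A1 had 8.49, 8.31 and 11 CPM in the double knockout libraries, against 12.8, 10.2 and 12.5 CPM in the wild type libraries (log2 fold change -0.34, SE 0.15, adjusted p = 0.0397). Its groups overlapped, and the call was lost with DESeq2 (adjusted p = 0.17), with limma voom (0.0508), without the filter (0.0622) and without double knockout replicates 1 (-0.29, adjusted p = 0.132) or 2 (-0.27, 0.17) or wild type replicates 1 (-0.28, 0.165) or 3 (-0.31, 0.0952). COL5A1, which sets fibril diameter, had 9.66, 10.3 and 13 CPM in the double knockout libraries, against 14.6, 15.1 and 15.4 CPM in the wild type libraries (log2 fold change -0.45, SE 0.13, adjusted p = 0.0021), in a neighbourhood whose median was 0.46 over 119 genes. COL5A2 had 3.0, 2.62 and 2.4 CPM in double knockout and 4.12, 3.39 and 3.09 CPM in wild type and did not pass (95% interval -0.96 to 0.12, adjusted p = 0.187), although its groups did not overlap. COL27A1, a cartilage fibril collagen, was the most abundant of the class per length and had 43.1, 49.6 and 49.8 CPM in the double knockout libraries, against 67.9, 63.7 and 63.9 CPM in the wild type libraries (log2 fold change -0.46, SE 0.07, adjusted p = 8.09e-11), while its neighbours had a median of 0.26 over 37 genes. COL24A1 rose, with 3.66, 6.77 and 5.44 CPM in the double knockout libraries, against 3.57, 3.12 and 3.45 CPM in the wild type libraries (log2 fold change 0.66, SE 0.23, adjusted p = 0.0111). That call was lost without double knockout replicate 2 (0.43, adjusted p = 0.176), without wild type replicate 2 (0.59, 0.0550), with DESeq2 (0.0925) and with spike-in scaling (0.0713).

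Fibril-associated collagens, which decorate the surface of fibrils, held 4 of the 8 collagen genes that rose. COL12A1 had 5.0, 6.0 and 6.4 CPM in the double knockout libraries, against 1.37, 1.9 and 1.27 CPM in the wild type libraries (log2 fold change 1.90, SE 0.28, adjusted p = 1.20e-10). COL9A2 and COL9A3, chains of the type IX collagen of cartilage, both rose. COL9A3 had 8.33, 10.5 and 8.8 CPM in the double knockout libraries, against 1.79, 2.99 and 4.54 CPM in the wild type libraries (log2 fold change 1.62, SE 0.21, adjusted p = 5.45e-13). COL9A2 had 4.66, 4.16 and 5.12 CPM in the double knockout libraries, against 1.51, 2.04 and 2.54 CPM in the wild type libraries (log2 fold change 1.22, SE 0.28, adjusted p = 4.46e-05). Their partner COL9A1 had 2 reads in each group. COL14A1 had 7.99, 8.62 and 8.16 CPM in the double knockout libraries, against 6.19, 4.34 and 4.54 CPM in the wild type libraries (log2 fold change 0.71, SE 0.19, adjusted p = 5.84e-04). COL19A1 had 4.66, 7.08 and 5.12 CPM in double knockout and 7.56, 5.97 and 5.45 CPM in wild type and did not pass (95% interval -0.57 to 0.21, adjusted p = 0.454). COL9A3 shares 45 exon bases with TCFL5 on the opposite strand, which fell by 0.14.

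Among the remaining collagens, 1 rose and 3 fell. COL25A1, a transmembrane collagen found in amyloid plaques and needed for motor innervation of muscle in mice, had 28.6, 30.9 and 27.8 CPM in the double knockout libraries, against 59.7, 58 and 63.4 CPM in the wild type libraries (log2 fold change -1.04, SE 0.08, adjusted p = 1.27e-35). It lies in a region of chromosome 4 that was lower, with a neighbourhood median of -0.52 over 41 genes, and -0.52 was left of its fold change after that median was subtracted. COL13A1 and COL23A1, also transmembrane, averaged 12.4 ± 1.9 CPM in double knockout and 11.8 ± 1.47 CPM in wild type and 3.74 ± 0.782 CPM in double knockout and 4.4 ± 0.479 CPM in wild type and did not pass (95% intervals of log2 fold change -0.19 to 0.35 and -0.71 to 0.23). COL18A1, the precursor of endostatin in basement membranes, had 31.5, 31.2 and 36.8 CPM in the double knockout libraries, against 43.7, 45.5 and 41.9 CPM in the wild type libraries (log2 fold change -0.40, SE 0.08, adjusted p = 2.06e-06). It shares 1401 exon bases with SLC19A1 on the opposite strand, which rose by 0.30. COL6A1, of the beaded filaments around cells, had 72.6, 66.2 and 74.9 CPM in the double knockout libraries, against 57.1, 62.2 and 61.7 CPM in the wild type libraries (log2 fold change 0.24, SE 0.06, adjusted p = 2.65e-04), and its call was lost with spike-in scaling (0.14, adjusted p = 0.285). COL6A2 had 21, 22.3 and 25 CPM in double knockout and 18.7, 21 and 19.6 CPM in wild type and did not pass (95% interval -0.00 to 0.40, adjusted p = 0.0852). COL6A1 was the most abundant collagen per length, with 13.3 RPKM in double knockout and 11.3 RPKM in wild type, whereas COL6A3, the third chain of type VI collagen, had 5 reads in double knockout and 2 in wild type. COL26A1 had 5.83, 5.69 and 6.72 CPM in the double knockout libraries, against 7.56, 9.37 and 9.08 CPM in the wild type libraries (log2 fold change -0.51, SE 0.18, adjusted p = 0.0101), among neighbours with a median of 0.27 over 95 genes, and without wild type replicate 2 its call was lost (-0.44, adjusted p = 0.0571), as it was with DESeq2 (0.0768). COL7A1, of anchoring fibrils, averaged 3.82 ± 0.868 CPM in double knockout and 4.67 ± 0.675 CPM in wild type and did not pass (adjusted p = 0.341).

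**Figure D4:**
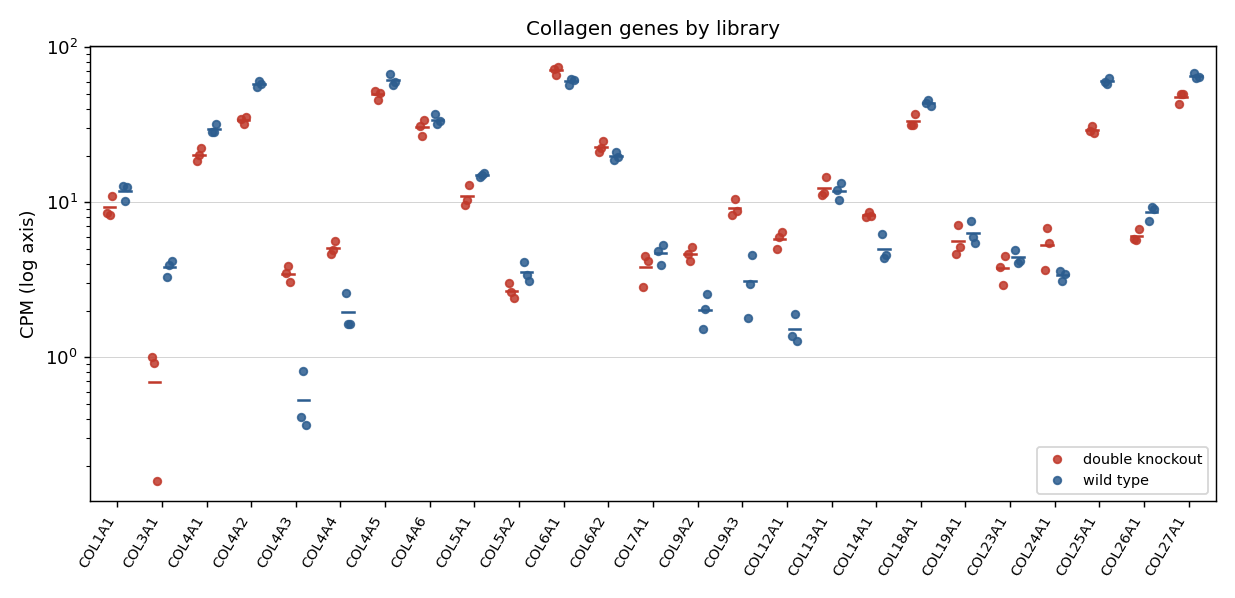
CPM per library (log axis) for the 25 tested collagen genes, double knockout left of wild type, with a short line at each mean. COL4A3 and COL4A4 are higher in double knockout while COL4A1 and COL4A2 are lower, and COL3A1 had 0.160 to 0.999 CPM in double knockout and 3.30 to 4.18 CPM in wild type.

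Laminin genes were mostly higher in double knockout. Of 12 laminin genes, 11 passed the filter, 8 rose, 2 fell and 1 did not pass (median log2 fold change 0.52), against 28.6% of all tested genes called higher and 28.5% lower. The laminin sum was 482, 493 and 497 CPM in the double knockout libraries, against 412, 412 and 413 CPM in the wild type libraries. LAMA3 and LAMB3, an alpha and a beta chain of epithelial laminins, both rose. LAMA3 had 104, 98 and 103 CPM in the double knockout libraries, against 69.4, 70.2 and 68.8 CPM in the wild type libraries (log2 fold change 0.55, SE 0.05, adjusted p = 5.07e-21). LAMB3 had 5.49, 5.23 and 4.16 CPM in the double knockout libraries, against 1.51, 1.77 and 2.0 CPM in the wild type libraries (log2 fold change 1.5, SE 0.28, adjusted p = 5.56e-07). The groups did not overlap in either gene. Their levels were unequal per length, since LAMA3 had 6.93 RPKM in double knockout and 4.73 RPKM in wild type, and LAMB3 had 1.06 RPKM in double knockout and 0.375 RPKM in wild type. Genes around LAMA3 had a median log2 fold change of 0.37 over 28 genes, and those around LAMB3 had -0.07 over 60 genes.

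Among the other alpha chains, which carry most receptor binding sites, LAMA4 of vessels and muscle had 18, 14.5 and 15 CPM in the double knockout libraries, against 11.3, 10.3 and 8.35 CPM in the wild type libraries (log2 fold change 0.64, SE 0.13, adjusted p = 8.89e-06), in a neighbourhood with a median of -0.30 over 49 genes. LAMA5, the main alpha chain of mature kidney basement membranes, had 27.8, 30.2 and 32 CPM in the double knockout libraries, against 21.7, 22.9 and 25.2 CPM in the wild type libraries (log2 fold change 0.38, SE 0.09, adjusted p = 1.91e-04). Both rose, and the call of LAMA5 was lost with spike-in scaling (0.26, adjusted p = 0.0787). LAMA5 shares 244 exon bases with ADRM1 on the opposite strand, which did not pass (adjusted p = 0.402). LAMA1, the alpha chain of embryonic basement membranes, fell and had 14.2, 13.9 and 14.6 CPM in the double knockout libraries, against 17.7, 20.4 and 17.2 CPM in the wild type libraries (log2 fold change -0.39, SE 0.12, adjusted p = 0.0027). LAMA2, of muscle and nerve, had 2.66, 4.0 and 5.92 CPM in double knockout and 2.47, 2.99 and 3.45 CPM in wild type and was not called (95% interval 0.01 to 1.03, adjusted p = 0.0756). Without double knockout replicate 1, the lowest of its group, LAMA2 was called at 0.75 (adjusted p = 0.0164), and without double knockout replicate 3, the highest, it was 0.19 (adjusted p = 0.623). Its neighbourhood had a median log2 fold change of -0.59 over 24 genes.

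Of the other beta and gamma chains, LAMC3 had 41.3, 47.2 and 51.2 CPM in the double knockout libraries, against 27.8, 23.9 and 31.4 CPM in the wild type libraries (log2 fold change 0.77, SE 0.08, adjusted p = 4.70e-18). Its neighbourhood on chromosome 9 had a median of 0.44 over 125 genes, and 0.33 of its fold change was left after subtraction. LAMB2, of the glomerulus and the neuromuscular junction, fell, with 27.5, 26.3 and 27.2 CPM in the double knockout libraries, against 31.3, 32.6 and 33 CPM in the wild type libraries (log2 fold change -0.26, SE 0.09, adjusted p = 0.00803). It lies in a part of chromosome 3 with a median of -0.39 over 146 genes, so that LAMB2 less that median was 0.13, the only called member for which this difference had the opposite sign. Its call was lost with DESeq2 (adjusted p = 0.0682). LAMB1 had 37.1, 40.6 and 37.4 CPM in the double knockout libraries, against 35.2, 32.6 and 30.3 CPM in the wild type libraries (log2 fold change 0.23, SE 0.08, adjusted p = 0.0124). Its call was lost without double knockout replicate 2 (0.18, adjusted p = 0.0931), without wild type replicate 3 (0.18, 0.0828), with DESeq2 (0.0885) and with spike-in scaling (0.11, 0.440). LAMB1 shares 70 exon bases with DLD on the opposite strand, which had 3474 reads over the libraries and did not pass (adjusted p = 0.653). LAMC1, the gamma chain shared by most laminins and the most abundant laminin per length in both groups, had 199, 209 and 202 CPM in the double knockout libraries, against 192, 191 and 191 CPM in the wild type libraries. Its difference of 0.09 (adjusted p = 0.0479) was called in 1 of the 6 fits that left out a library and turned to -0.02 with spike-in scaling; without wild type replicate 2, for example, it was 0.08 (adjusted p = 0.116).

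**Figure D5:**
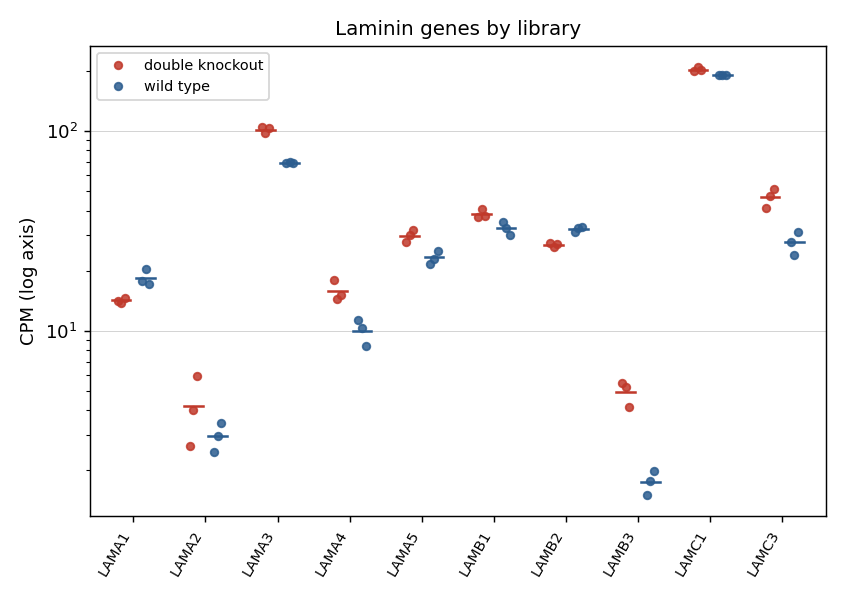
CPM per library (log axis) for the laminin genes described in the text, double knockout left of wild type, with a short line at each mean. LAMB3 lies between 4.16 and 5.49 CPM in double knockout and between 1.51 and 2.00 CPM in wild type, and LAMC1 lies near 200 CPM in both groups.

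The 35 members that did not pass the filter had at most 48 reads over the 6 libraries, and 14 at most in 1 library. COL1A2, MMP8 and TIMP4 had 0 reads throughout. A further 9 had reads in double knockout only and 0 had reads in wild type only. The highest of the 9 were MMP13 with 10 reads and MMP3 with 5, and the others had 1 to 3 reads each. The same split over all genes that did not pass the filter was not computed, so it cannot be called a trait of the members. COL20A1, the untested member with most reads, had 9, 13 and 8 reads in the double knockout libraries, against 5, 9 and 4 in the wild type libraries. Since a gene expressed in only 1 group can pass the filter on that group alone, the counts over tested members do not describe all 84.

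Genes around the matrix chains, from lists chosen with earlier results of these data known, did not move as 1 group. Of 36 genes of collagen folding, secretion and crosslinking, 34 passed the filter, 11 rose and 9 fell (58.8% called, median log2 fold change 0.01). Of all tested genes, 57.1% were called, 28.6% higher and 28.5% lower, so the called share of this list was close to that of all tested genes. LOXL4, a lysyl oxidase, had 14.3, 15.2 and 13.1 CPM in the double knockout libraries, against 4.67, 5.7 and 4.72 CPM in the wild type libraries (log2 fold change 1.49, SE 0.16, adjusted p = 1.98e-17), and ADAMTS2, the procollagen N-proteinase, had 23.6, 21.5 and 27 CPM in the double knockout libraries, against 9.07, 10.5 and 8.35 CPM in the wild type libraries (log2 fold change 1.36, SE 0.12, adjusted p = 1.10e-24). PLOD3, a lysyl hydroxylase, also rose (log2 fold change 0.47, SE 0.07, adjusted p = 9.61e-10). PLOD2, the hydroxylase of telopeptide lysines, had 52.8, 52.9 and 53.1 CPM in the double knockout libraries, against 102, 101 and 99.8 CPM in the wild type libraries (log2 fold change -0.93, SE 0.06, adjusted p = 8.90e-47). SEC24D, of the vesicle coat that exports procollagen, and CRTAP, of the prolyl hydroxylation complex, fell by 0.65 and 0.43.

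Receptors for these ligands were divided as well. Of 27 matrix receptors, 23 passed, 8 rose and 7 fell (65.2% called, against 57.1% of all tested genes, median 0.08). ITGA6, the alpha subunit of laminin-binding integrins, had 40.6, 36.6 and 40.5 CPM in the double knockout libraries, against 24.9, 22.5 and 24.1 CPM in the wild type libraries (log2 fold change 0.72, SE 0.09, adjusted p = 1.15e-14). ITGA7, another laminin-binding alpha subunit, and SDC1, a syndecan, rose by 1.19 and 0.78. ITGB4, the partner of ITGA6 in hemidesmosomes, had 5.16, 5.69 and 5.92 CPM in the double knockout libraries, against 2.34, 2.44 and 3.27 CPM in the wild type libraries and rose by 1.08, and CD44, a hyaluronan receptor that also holds MMPs at the surface, had 12, 16 and 13 reads in the double knockout libraries, against 1, 0 and 0 in the wild type libraries. ITGB4 and CD44, which both rose, were chosen after their values were seen. Also called were DDR1, ITGA5 and SDC4 (log2 fold changes 0.60, 0.47 and 0.55). ITGA8, ITGA9, BCAM and ITGA1 were called lower (log2 fold changes -1.02, -0.96, -0.39 and -0.29). DDR2, a receptor tyrosine kinase for fibrillar collagens, had 33.5, 37.1 and 37 CPM in the double knockout libraries, against 61.9, 65.7 and 66.1 CPM in the wild type libraries (log2 fold change -0.84, SE 0.07, adjusted p = 5.03e-28). DAG1, dystroglycan, a laminin receptor, fell by 0.43 and ITGB5, a beta subunit of vitronectin-binding integrin, fell by 0.59. DAG1, ITGB5 and ITGA9, like PLOD2 and CRTAP, lie on chromosome 3. So do the collagen processing gene PCOLCE2 and the protease gene ADAMTS9, which were called lower (log2 fold changes -0.53 and -0.69). The collagen processing gene P3H2 and the ETS gene ETV5, also on chromosome 3, rose by 0.88 and 2.93. The part of the chromosome in these differences was not tested. ITGB1, the beta subunit of most collagen and laminin receptors, had 94.9, 97 and 95.9 CPM in double knockout and 90.7, 94.9 and 103 CPM in wild type and did not pass (adjusted p = 0.988).

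Other matrix proteins and proteases were called in both directions. Of 50 further basement membrane and matrix genes, 29 passed, 9 rose and 8 fell (58.6% called, close to the 57.1% of all tested genes, median 0.10). EMILIN1, LTBP2 and LTBP3 rose by 1.03, 0.74 and 0.36, the groups of LTBP3 overlapping. FBN2, a fibrillin, EMILIN2 and SMOC1 fell by 0.53, 1.17 and 0.74. Of 34 ADAM, ADAMTS and plasminogen system genes, 27 passed, 11 rose and 7 fell (66.7% called, against 57.1% of all tested genes, median 0.15). PLAT, tissue plasminogen activator, which generates the MMP-activating protease plasmin, had 54.6, 50.6 and 50.7 CPM in the double knockout libraries, against 14, 14.8 and 14.9 CPM in the wild type libraries (log2 fold change 1.84, SE 0.09, adjusted p = 2.07e-66). FURIN, which processes membrane-anchored MMPs and MMP11, and BSG, an inducer of MMPs, rose by 0.53 and 0.24. RECK, a membrane inhibitor of MMPs, had 24.6, 25.1 and 23.7 CPM in the double knockout libraries, against 40.6, 33.5 and 32.9 CPM in the wild type libraries (log2 fold change -0.55, SE 0.09, adjusted p = 6.05e-09). ADAMTS9 and ADAM10 fell by 0.69 and 0.35.

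Transcription factors known to act at MMP promoters, the AP-1 and ETS families, were mostly higher. Of 15 genes 13 passed, 11 rose and 1 fell (92.3% called, median 1.01, against 57.1% and 0.01 over all tested genes). FOSL2 had 33.8, 27.9 and 29.8 CPM in the double knockout libraries, against 8.39, 8.15 and 9.8 CPM in the wild type libraries (log2 fold change 1.80, SE 0.12, adjusted p = 2.96e-43). JUN had 453, 460.0 and 456 CPM in the double knockout libraries, against 205, 199 and 200.1 CPM in the wild type libraries (log2 fold change 1.18, SE 0.03, adjusted p = 3.43e-139), and JUND rose by 1.01. FOSB fell, with 2.16, 1.08 and 0.96 CPM in the double knockout libraries, against 2.34, 3.39 and 2.36 CPM in the wild type libraries (log2 fold change -0.97, SE 0.35, adjusted p = 0.0114). Of the 6 members with TGANTCA in a RefSeq window, LAMA3 and LAMB3 passed the filter and rose. The other 4 did not pass it: MMP10 had 31 reads in double knockout and 2 in wild type, COL10A1 had 2 and 0, MMP7 had 1 and 0, and MMP20 had 2 and 3. The window of TNC does not hold these letters, and no window was matched for MMP12, MMP13 or MMP3. Whether these factors act on the matrix genes was not tested.

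Fibroblast markers, set beside the fibril-forming collagens, gave no single direction. Of 8 listed, 3 passed, ACTA2 and S100A4 rising and LUM, lumican, falling, and the list summed to 16.3 to 19.6 CPM in double knockout and 11 to 12.4 CPM in wild type. Of the 5 that did not pass, DCN, FAP and THY1 had at most 2 reads in any library, PDGFRA had 2, 2 and 3 reads in the double knockout libraries, against 5, 3 and 5 in the wild type libraries, and PDGFRB had 5, 4 and 7 reads in the double knockout libraries, against 2, 2 and 0 in the wild type libraries, without overlap. LUM had 0, 3 and 0 reads in the double knockout libraries, against 24, 17 and 11 in the wild type libraries, the same direction as COL3A1. The part of other cell types in these results was not tested.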

How the data were processed

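The authors deposited one table of raw counts for each gene and library, as whole numbers. The submitters' processing notes name cutadapt 2.10, STAR 2.7.6a, featureCounts and the hg38 genome. Whether counting used strand, and how multimapping reads were treated, is not given in the sources used here. In library preparation the kit was directional, per the labels' protocols. Near-identical genes and overlapping genes therefore have uncertain counts, and 14 of the 49 tested members share exon bases with another gene that had reads. All 58721 identifiers matched GENCODE release 29, which gave symbols, positions and exon lengths. The 4 spike-in entries were left out of library sizes.

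Counts were analysed in R 4.3.3 with edgeR 4.0.16: filterByExpr (minimum count 10, minimum total 15), TMM scaling, glmQLFit in robust mode and glmQLFTest, two-sided, with Benjamini-Hochberg adjustment over all 14180 tested genes and a threshold of 0.05. SE is the log2 fold change divided by the square root of F. CPM used TMM-scaled library sizes, in replicate order 1 to 3. A count of 0 allows 3 reads. Counting intervals are exact 95% intervals for counting error only. Neighbourhoods held tested non-members whose start lay within 5 Mb. The common biological coefficient of variation between libraries of a group was 2.4%. The procedure was tested on simulated data in which every gene had this value. They lacked the spread between genes of real data, so that test was an easier setting. Alternatives used DESeq2 1.42.0, limma 3.58.1 voom, other scaling and filters, a test against a 1.5-fold change, a replicate block and the omission of each library. Replicate numbers did not pair the libraries.

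Members and lists were chosen with earlier results of these data known. Members past the filter were named, with values in every library where called with a 2-fold change or with 50 or more normalised counts on average in either group, and up to 3 called genes per direction with the smallest p from each other list. Outside this rule, all called matrix receptors, P3H2, PCOLCE2 and ETV5 were named as well. The values of 1 laminin gene are not reported here, although the family counts include it.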

Additional observations from a re-analysis of the deposited data

How the results depend on the processing

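Over 14 alternatives, 29 of the 39 called members kept their call and direction wherever they were tested, the test against a 1.5-fold change aside, and 33 did so in all 6 fits that left out a library. Against a 1.5-fold change, 11 members were called higher and 3 lower, 662 and 426 of all genes, and 4 collagen processing, 4 receptor, 2 other matrix, 4 ADAM, ADAMTS and plasminogen, and 7 AP-1 and ETS genes, fewer because the null is wider. A mean CPM of at least 5 left 17 members called higher, with fewer genes tested. DESeq2 called 10 other matrix genes. Spike-in scaling called 2133 genes higher and 4236 lower, 19 members higher and 13 lower; LAMC1 turned to -0.023 and COL13A1 to -0.037. With 1 library left out, COL13A1, not called, ranged over -0.057 to 0.147 and MMP17, not called, over -0.213 to 0.086. The cause was not tested. Leaving out 1 library gave 24 to 27 members higher and 12 to 14 lower. Fitted with the replicate block, the calls were 26 higher and 13 lower and no member's call changed. After each gene's group mean was subtracted from its log CPM, these deviations correlated at 0.0106, 0.0166 and 0.0085 between same-numbered libraries. The numbers therefore did not pair the libraries. Depth limits genes under about 50 reads in all.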
